A study of Arabidopsis thaliana with 20 samples.

Results

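The comparison set Arabidopsis seedlings carrying a catalytically inactivated, truncated human ALKBH5 against wild-type Col-0 seedlings, in chromatin-associated RNA and its N6-methyladenosine (m6A). Its members were the 4 libraries of genotype OE ALKBH5 del-cIDR H204A and the 4 libraries of WT Col-0, 8 of the 20 libraries of the series. Each genotype gave 2 immunoprecipitated (IP) and 2 input libraries. The tested line overexpresses ALKBH5 without its C-terminal intrinsically disordered region and with the H204A change, and is called inactive del-cIDR below. The other genotypes were OE ALKBH5 FL H204A (inactive FL), OE ALKBH5 del-cIDR and OE ALKBH5 FL. They served to set this line apart, and entered the spread behind its tests, the level classes and the mean level used for naming. All groups were whole seedlings of 10 days, grown at 21 °C on MS medium with 16 h of light and 8 h of darkness, in a growth chamber or a growth room, and all lines are in the Col-0 background. The labels give no promoter and no number of independent lines, so an effect of the transgene cannot be told apart from one of a single line. The transgene itself is no feature of the tables analysed here, and its level and the inactive site could not be checked from them. The labels do not say whether replicate libraries came from separate plants, so p-values cover the spread between these libraries only, and that spread may be technical.

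ALKBH5 is a human enzyme that removes m6A from RNA, and H204 is one of the residues that hold the iron of its active site. In plants, m6A is written by a complex around MTA and EMB1691, removed by relatives of ALKBH5 and read by YTH-domain proteins of the ECT family. Chromatin-associated RNA is enriched in nascent and nuclear-retained transcripts, so its levels follow transcription and nuclear RNA turnover more closely than those of total RNA. In MeRIP-seq an antibody pulls down fragments that carry m6A, and the IP is read against the input.

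The expression table gave 1 signal for each of 30613 genes, pseudogenes, noncoding RNAs and transposable elements. The m6A table gave 1 ratio for each of 2291 peaks, of which 2247 were nuclear, 23 plastid and 21 mitochondrial. Both are the authors' spike-in-scaled values and not counts, so depth is unknown and no counting interval can be given. Whether the signal is divided by gene length is not stated, so signals are compared within a gene. Between the 2 libraries of a genotype the median absolute log2 difference, over features with a signal of 200 to 1000, was 0.0771 in inactive del-cIDR and 0.0789 in Col-0. Plastid-encoded features made up 36.8% and 36.7% of the expression signal in inactive del-cIDR, against 31.0% and 30.4% in Col-0. The single locus AT3G06365 made up 24.6% and 25.1% in inactive del-cIDR, against 29.9% and 31.1% in Col-0.

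Chromatin-associated RNA of the inactive del-cIDR line differed from that of Col-0 at a large share of the genome. Light-harvesting, jasmonate and rapid stress genes were higher, and the clock genes TOC1, PCL1 and ELF3, the RNA-binding protein genes GRP7 and CCR1 and the m6A readers ECT2 and ECT3 were lower. Calls were made in limma, with p-values adjusted by the Benjamini-Hochberg method over the whole table and a threshold of 0.05. By that rule 9920 features were higher (32.4%) and 2400 were lower (7.84%). Both inactive del-cIDR values lay above both Col-0 values at 57.9% of features and below them at 14.5%. The balance of these calls depended on the scale. On the deposited scale the median feature was shifted by 0.31 (log2), with library medians of 70.2 and 70.6 in inactive del-cIDR and 54.2 and 51.0 in Col-0. The 2 pairs did not overlap, but an exact two-sided permutation test of the log2 difference of 0.42 gave p = 0.333, the smallest that 2 libraries a side allow. After centring each library on its median, 3431 features were higher (11.2%) and 7548 lower (24.7%). After cyclic loess normalization, an alternative added after the data were seen, 5232 were higher (17.1%) and 4836 lower (15.8%). Features called the same way under all 3 scalings numbered 3117 higher (10.2%) and 2372 lower (7.75%), and these are called held below. Of the 2400 falls 2372 held, but of the 9920 rises 3117 did. Centring moved changes against Col-0 downward, so a fall could hardly lose its call there. Holding therefore says less about a fall than about a rise. For the gene lists, held counts are given beside counts on the deposited scale, except in the comparison with the active del-cIDR line. List counts are to be read against the shares of all features given here. Apart from the m6A genes, single genes below were picked by p, by size of change or after their values were seen. That their libraries lie apart therefore adds no support.

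By median change, the upward shift was largest among weakly expressed features. When features were split into 10 equal classes by their level in the other 3 ALKBH5 lines, the median log2 change was 0.36 in the lowest class and 0.48 in the third. It was 0.10 in the ninth class and 0.00337 in the highest. In that highest class the median feature had a signal of 1222 and 1220 in inactive del-cIDR and of 1179 and 1150 in Col-0. There, 1127 features were higher and 1090 lower out of 3062. By calls the order differed, with 9.9% of features called higher in the lowest class and 36.8% in the highest. The classes come from the other ALKBH5 lines. With classes from all 10 libraries the median changes of the lowest and highest class were 0.36 and 0.0064.

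**Figure D1:**
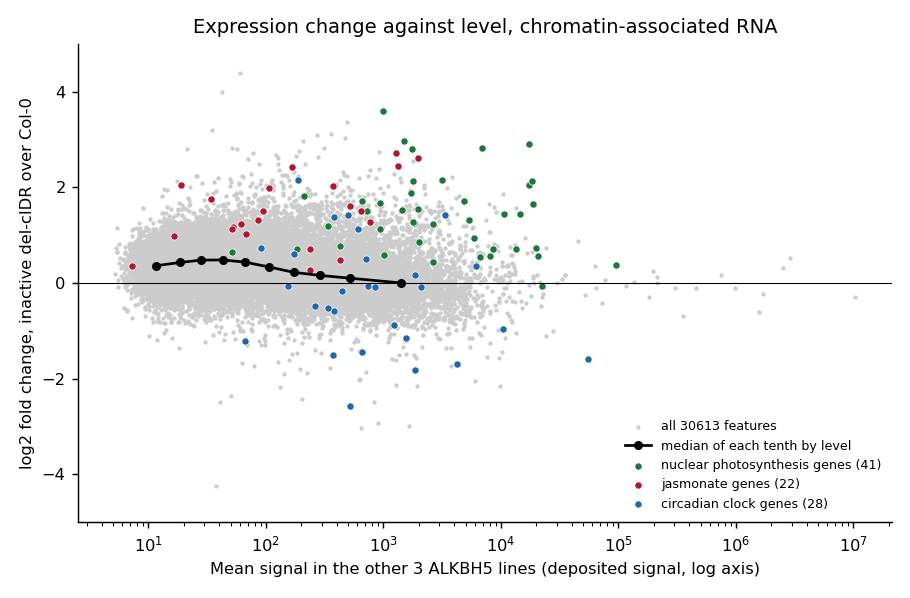
Expression change of inactive del-cIDR over Col-0 (log2, vertical) against the mean signal in the other 3 ALKBH5 lines (log axis), with 1 point per feature, a black line for the median of each level class, and 3 gene lists in colour. The median change is 0.36 in the lowest class, 0.48 in the third and 0.00337 in the highest, and the photosynthesis and jasmonate genes lie mostly above the line while clock genes lie on both sides of 0.

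Nuclear genes for photosynthesis rose almost without exception. Of 41 measured members, 40 rose and none fell, and 35 of the rises held under all 3 scalings. The median log2 change of the 41 members was 1.32, against 0.31 for all features. CAB2, a light-harvesting chlorophyll a/b protein of photosystem II, had a signal of 39821 and 39826 in inactive del-cIDR, against 5399 and 5222 in Col-0. This was a log2 change of 2.91 ± 0.04 (SE, as for all log2 changes below). LHCB3, another antenna protein of photosystem II, had 16500 and 16710 in inactive del-cIDR, against 2420 and 2259 in Col-0 (2.82 ± 0.04). RCA, the activase that keeps Rubisco working, had 49131 and 49974 in inactive del-cIDR, against 11400 and 11314 in Col-0 (2.12 ± 0.04). In each of these genes the libraries of a genotype differed by far less than the genotypes did. The LHCB2 genes moved in the same way. LHCB2.3 had 2983 and 2964 in inactive del-cIDR, against 238 and 238 in Col-0 (3.60 ± 0.06). LHCB2.2 had 4604 and 4726 in inactive del-cIDR, against 565 and 608 in Col-0 (2.98 ± 0.06).

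Members of the group differed widely among themselves. LHB1B1, a further light-harvesting gene, was the 1 member that was not called, with 19867 and 20427 in inactive del-cIDR and 20749 and 21312 in Col-0 (-0.06 ± 0.04). CAB1 had 97641 and 97635 in inactive del-cIDR against 75458 and 75212 in Col-0, and changed by 0.37 ± 0.04, a rise that did not hold under all scalings. CAB1, CAB2 and CAB3 are near-identical copies, as are the LHCB2 genes, and how the authors' counting divided shared reads is not stated, so the split among copies is uncertain. Photosystem I genes ranged from PSAG (74.1 and 79.5 in inactive del-cIDR, 55.3 and 38.5 in Col-0) to PSAO (3680 and 3753 in inactive del-cIDR, 999 and 1002 in Col-0). Their log2 changes were 0.65 ± 0.23, which did not hold, and 1.89 ± 0.05. Without Col-0 replicate 2 the change of PSAG was 0.43 and it was not called (adjusted p = 0.259). In whole seedlings a different share of green cells and a different RNA level per cell cannot be told apart. The summed signal of the list was 534769 and 540503 in inactive del-cIDR, against 254981 and 251900 in Col-0.

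In the circadian clock TOC1 and the 3 evening complex genes fell, and other members moved in both directions. The clock is a loop of transcription factors whose morning members, such as CCA1 and LHY, and evening members, such as TOC1 and the evening complex, repress each other in turn. Of 28 measured members, 10 rose, of which 5 held, and 13 fell, all of which held. TOC1, the evening repressor of CCA1 and LHY, had 1376 and 1321 in inactive del-cIDR, against 4390 and 4406 in Col-0 (-1.70 ± 0.04). PCL1, the DNA-binding subunit of the evening complex, had 542 and 578 in inactive del-cIDR, against 2046 and 1934 in Col-0 (-1.82 ± 0.06). ELF3, the scaffold of that complex, had 759 and 747 in inactive del-cIDR, against 1710 and 1651 in Col-0 (-1.15 ± 0.06). In each of these genes the Col-0 libraries lay well above those of inactive del-cIDR. The third subunit, ELF4, was low in all libraries, with 30.7 and 17.41 in inactive del-cIDR and 62.4 and 63.4 in Col-0, and fell as well (-1.21 ± 0.24). BOA, a close relative of PCL1, had 126 and 106 in inactive del-cIDR, against 352 and 334 in Col-0 (-1.51 ± 0.10).

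Among the other members PRR9 and the LNK loci rose. PRR9, a pseudo-response regulator of the morning, had 253 and 232 in inactive del-cIDR, against 50.2 and 47.4 in Col-0 (2.16 ± 0.14). CCA1 had 678 and 656 in inactive del-cIDR, against 473 and 460 in Col-0 (0.51 ± 0.07), a rise that did not hold under all scalings. LHY, its partner, had 228 and 219 in inactive del-cIDR, against 341 and 336 in Col-0 (-0.58 ± 0.11). Of the pair, LHY was thus called lower and CCA1 higher on the deposited scale. The 4 loci listed as LNK1 to LNK4, clock cofactors, all rose and held, with changes from 1.14 to 1.42. AT3G54500, listed as LNK2, had 3605 and 3688 in inactive del-cIDR, against 1337 and 1371 in Col-0 (1.42 ± 0.05). GI, which links the clock to flowering, was not called, with 1080 and 1069 in inactive del-cIDR and 1121 and 1148 in Col-0. Nor was ZTL, a relative of FKF1 (-0.08 ± 0.07), and PRR5 changed by 0.16 ± 0.06, a rise that did not hold. The partner of GI, FKF1, a blue-light receptor, fell to 389 and 369 in inactive del-cIDR, against 683 and 721 in Col-0 (-0.88 ± 0.07).

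Further genes of the clock list, and others chosen by the size of their change, were lower. GRP7, a glycine-rich RNA-binding protein under clock control, had 16011 and 15739 in inactive del-cIDR, against 47274 and 47850 in Col-0 (-1.58 ± 0.03). Its paralog CCR1 had 5222 and 5185 in inactive del-cIDR, against 10046 and 10130 in Col-0 (-0.95 ± 0.04). RVE2, an MYB-related factor of the CCA1 family, had 154 and 143 in inactive del-cIDR, against 917 and 933 in Col-0 (-2.58 ± 0.09). For all 3 genes the ranges lay far apart. JMJD5, a jumonji-domain protein that feeds back on the clock, had 113 and 126 in inactive del-cIDR, against 1041 and 1009 in Col-0 (-3.03 ± 0.08). COL9, a CONSTANS-like B-box protein, had 241 and 203 in inactive del-cIDR, against 1219 and 1312 in Col-0 (-2.48 ± 0.07). The hour of harvest is not given for any group.

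**Figure D2:**
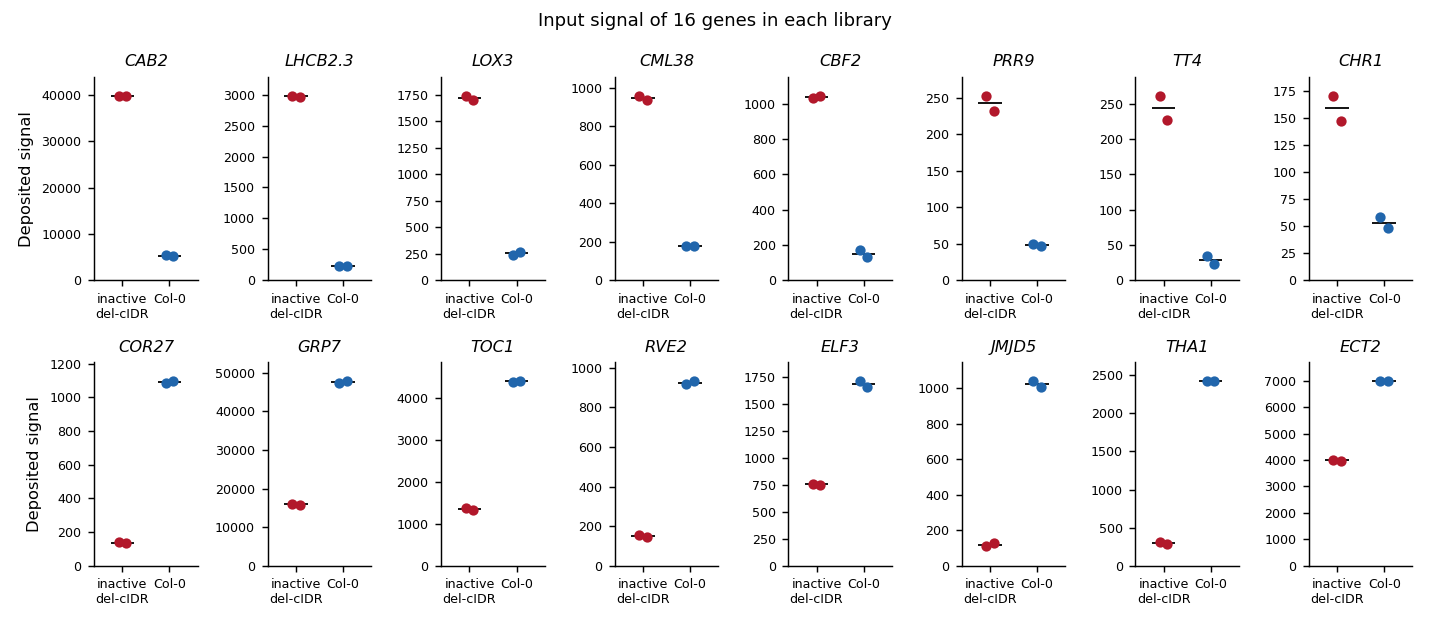
Expression signal in each input library for selected genes, with 1 point per library and 2 libraries per genotype on axes that start at 0, and the short line marking the mean. Inactive del-cIDR stands above Col-0 for CAB2, with 39821 and 39826 against 5399 and 5222, and below Col-0 for TOC1, with 1376 and 1321 against 4390 and 4406.

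Cold and abscisic acid genes moved in both directions, and 17 were measured. Of these 11 rose, with 10 holding, and 4 fell, all holding. CBF2, 1 of the CBF transcription factors that switch on cold genes, had 1032 and 1046 in inactive del-cIDR, against 170 and 130 in Col-0 (2.75 ± 0.08). Its neighbour CBF1 had 416 and 431 in inactive del-cIDR, against 97.0 and 135 in Col-0 (1.83 ± 0.10). RHL41, a zinc-finger factor of high-light and cold stress, had 945 and 850 in inactive del-cIDR, against 345 and 367 in Col-0 (1.32 ± 0.07). ERD10, a dehydrin, had 3146 and 3185 in inactive del-cIDR, against 1745 and 1786 in Col-0 (0.84 ± 0.05). COR27, a cold-induced gene that is also under clock control, went the other way, with 141 and 134 in inactive del-cIDR against 1086 and 1097 in Col-0 (-2.93 ± 0.07). AT4G33980 had 269 and 274 in inactive del-cIDR, against 1255 and 1166 in Col-0 (-2.13 ± 0.07).

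Jasmonate genes rose almost throughout, with 20 of 22 higher, 18 of these holding, and none lower. The hormone is made from plastid lipids by lipoxygenases and a short chain of further enzymes, and JAZ proteins repress its response. LOX3 and LOX4 are lipoxygenases of this route. LOX3 had 1742 and 1701 in inactive del-cIDR, against 243 and 271 in Col-0 (2.71 ± 0.06). LOX4 had 1804 and 1833 in inactive del-cIDR, against 273 and 310 in Col-0 (2.62 ± 0.06). Further along the route, AOS had 959 and 927 in inactive del-cIDR, against 301 and 308 in Col-0 (1.61 ± 0.08). OPR3, which acts after AOS, had 674 and 658 in inactive del-cIDR, against 157 and 158 in Col-0 (2.03 ± 0.09). CYP94B3, which inactivates the hormone, was higher as well, with 1078 and 1030 in inactive del-cIDR against 185 and 189 in Col-0 (2.45 ± 0.07). Among 8 measured JAZ repressor genes JAZ5 and JAZ8 rose by 2.44 ± 0.15 and 2.04 ± 0.30. JAZ5 had 208 and 214 in inactive del-cIDR, against 31.7 and 34.9 in Col-0. The 2 members that were not called were JAZ12 (0.27 ± 0.12) and the thionin gene THI2.1 (0.35 ± 0.32), whose signal was under 10 in all 4 libraries.

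The rapid stress and touch list, genes that respond within minutes to handling, wounding or microbial patterns, rose in 18 of 19 members, with 17 holding. WRKY33, a defence transcription factor, had 3183 and 3157 in inactive del-cIDR, against 918 and 861 in Col-0 (1.83 ± 0.05). TCH3, a calmodulin-like touch gene, had 1732 and 1834 in inactive del-cIDR, against 478 and 492 in Col-0 (1.86 ± 0.06). CML38, another calmodulin-like gene, had 960 and 937 in inactive del-cIDR, against 177 and 176 in Col-0 (2.38 ± 0.07). These genes were picked by their values, and no library of either genotype overlapped the other. The same was true of 57.9% (higher) and 14.5% (lower) of all features. The 1 member that fell was XTH25, a cell-wall enzyme gene, with 179 and 176 in inactive del-cIDR against 295 and 308 in Col-0 (-0.74 ± 0.11). How the seedlings were handled at harvest is not given.

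Salicylic acid and immune genes rose in part. Of 16 measured members 10 rose, 6 of them holding, and none fell, while of all features 32.4% rose and 10.2% rose and held. WRKY70, a transcription factor of this pathway, had 290 and 293 in inactive del-cIDR, against 80.9 and 83.4 in Col-0 (1.75 ± 0.13). EDS16, the isochorismate synthase that makes most salicylic acid, had 144 and 170 in inactive del-cIDR, against 52.4 and 46.4 in Col-0 (1.54 ± 0.18). The late marker PR1 was not called, with 6.62 and 24.6 in inactive del-cIDR and 7.84 and 6.14 in Col-0, so that its libraries overlapped. Of 7 intracellular immune receptor genes 6 rose and 1 fell, and all 7 calls held. SNC1 had 3014 and 3183 in inactive del-cIDR, against 1355 and 1301 in Col-0 (1.22 ± 0.05). RPS4 was the member that fell, with 568 and 549 in inactive del-cIDR against 732 and 705 in Col-0 (-0.36 ± 0.07).

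Genes of RNA silencing and DNA methylation rose in 12 of 19 measured members, with 4 of the rises holding and none falling. Of all features 32.4% rose and 10.2% rose and held. The median change of the list was 0.41, close to the 0.31 of all features. Those 4 were CHR1, CMT3, MET1 and CMT2. CHR1, the chromatin remodeller also known as DDM1 that lets methyltransferases reach packed chromatin, had 171 and 147 in inactive del-cIDR, against 58.5 and 48.3 in Col-0 (1.46 ± 0.17). MET1, which maintains methylation at CG sites, had 580 and 535 in inactive del-cIDR, against 356 and 340 in Col-0 (0.67 ± 0.08). The dicing and slicing genes DCL1 and AGO1 were not called, with log2 changes of 0.05 ± 0.05 and 0.06 ± 0.05.

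Among the plant's own m6A genes, 1 of 6 writers and 4 of 12 readers were called. Of all features 32.4% were called higher and 7.84% lower. None of the 6 writer genes rose and 1 fell, the locus AT5G01160, with 189 and 169 in inactive del-cIDR against 296 and 252 in Col-0 (-0.59 ± 0.11). MTA, the catalytic subunit, had 292 and 314 in inactive del-cIDR and 317 and 294 in Col-0 (-0.01 ± 0.09). Its partner EMB1691 changed by -0.10 ± 0.07, FIP37 by -0.19 ± 0.10, EMB2016 by -0.03 ± 0.06 and FIO1 by -0.14 ± 0.16, none of them called. Of the 12 readers 1 rose and 3 fell, and all 4 calls held. ECT2, a YTH-domain reader that acts in leaf and trichome development, had 3998 and 3976 in inactive del-cIDR, against 6989 and 6970 in Col-0 (-0.81 ± 0.04). ECT3, which acts with ECT2, had 564 and 568 in inactive del-cIDR, against 916 and 908 in Col-0 (-0.68 ± 0.07). ECT1 fell by less, with 283 and 286 in inactive del-cIDR against 352 and 379 in Col-0 (-0.35 ± 0.09). ECT6 was the reader that rose, with 169 and 172 in inactive del-cIDR against 69.7 and 93.7 in Col-0 (1.02 ± 0.15). The 8 others, ECT4, ECT5, ECT7, ECT8, ECT9, ECT10, ECT11 and CPSF30, had log2 changes between -0.29 and 0.16 and were not called.

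Of the 5 loci listed as erasers, 3 rose on the deposited scale, none holding, and 1 fell, against 32.4% and 7.84% of all features. AT4G02940 had 863 and 862 in inactive del-cIDR, against 1146 and 1236 in Col-0 (-0.46 ± 0.06), and this fall held. AT2G17970, AT2G48080 and AT4G36090 changed by 0.46 ± 0.10, 0.51 ± 0.19 and 0.30 ± 0.11. Without inactive del-cIDR replicate 2 the changes of AT2G48080 and AT4G36090 were 0.24 and 0.20, and neither was called (adjusted p = 0.486 and 0.312). Without Col-0 replicate 1 that of AT4G36090 was 0.17 (adjusted p = 0.325). AT1G48980 was not called (0.61 ± 0.31), with 6.64 and 8.84 in inactive del-cIDR and 1.92 and 3.41 in Col-0.

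Other lists moved less evenly. For comparison, 32.4% of all features rose and 7.84% fell, and 10.2% and 7.75% did so and held. Heat response genes were near the background, with 6 of 19 higher, 1 of them holding, and 1 lower. The held rise was DREB2A, a drought and heat factor, with 1099 and 1120 in inactive del-cIDR against 472 and 546 in Col-0 (1.12 ± 0.06). Flavonoid genes rose in 7 of 9 members, but only TT4 and FLS1 held. TT4, the chalcone synthase that opens the pathway, had 261 and 226 in inactive del-cIDR, against 34.8 and 23.2 in Col-0 (2.82 ± 0.23). Starch genes rose in 5 of 10 members, with 4 holding, and 1 fell. GBSS1, the granule-bound starch synthase, had 592 and 542 in inactive del-cIDR, against 167 and 175 in Col-0 (1.69 ± 0.10). Flowering-time genes fell in 5 of 15 members, all holding, while 1 rose and did not hold. AGL31, a floral repressor related to FLC, had 640 and 594 in inactive del-cIDR, against 879 and 875 in Col-0 (-0.50 ± 0.07). FCA, which promotes flowering by lowering FLC, had 1392 and 1277 in inactive del-cIDR, against 1751 and 1782 in Col-0 (-0.40 ± 0.05).

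**Figure D3:**
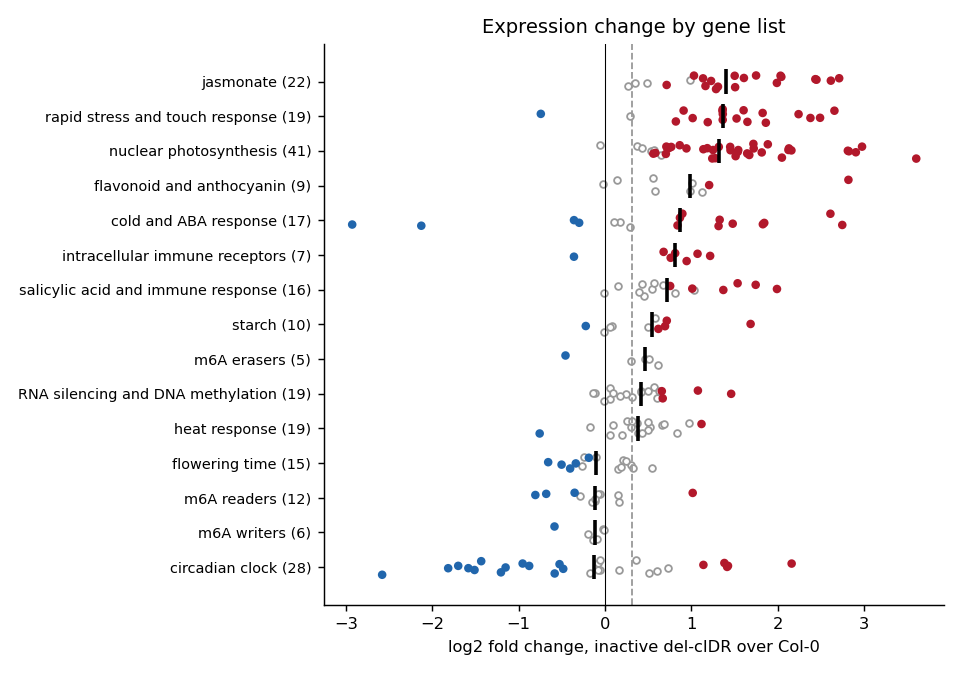
Log2 change in expression of inactive del-cIDR against Col-0 for every measured member of the gene lists, with 1 point per gene, filled red or blue where a rise or fall held under all 3 scalings and open otherwise, a bar at each list's median and a dashed line at the median of all features. The medians are 1.41 for jasmonate, 1.36 for rapid stress and touch, 1.32 for nuclear photosynthesis and -0.13 for the circadian clock, against 0.31 for all features.

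Markers of root and of shoot tissues had signal in every library and gave no single shift. Neither root hair marker, neither endodermis marker and neither shoot epidermis marker was called, and their summed signals were 68.1 and 70.7, 403 and 416, and 3524 and 3536 in inactive del-cIDR. In Col-0 the same sums were 75.3 and 70.0, 403 and 420, and 3432 and 3391. All 3 xylem markers rose but none held, with a sum of 388 and 382 in inactive del-cIDR against 247 and 240 in Col-0. Both dividing-cell markers rose, and SYP111, the syntaxin of the forming cell plate, held with 164 and 166 in inactive del-cIDR against 70.8 and 56.1 in Col-0 (1.296 ± 0.17). The sum of the 2 dividing-cell markers was 228 and 234 in inactive del-cIDR, against 102 and 91.6 in Col-0. Of 3 phloem markers 2 rose, and SUC2, the sucrose transporter of companion cells, held (0.81 ± 0.07). Of 4 guard-cell markers KAT1 rose without holding (0.56 ± 0.11) and FMA, a guard-cell transcription factor, fell (-0.64 ± 0.07). Of 3 root uptake markers the iron transporter IRT1 rose, with 34.5 and 22 in inactive del-cIDR against 5.94 and 4.36 in Col-0 (1.52 ± 0.31). None of 4 seed storage genes was called. The part of tissue composition in the changes above was not tested.

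Transposable elements rose in 1386 of 4050 cases and fell in 133. Of these calls 366 rises and 132 falls held, which is 9.04% and 3.26% of the elements, against 10.2% and 7.75% of all features. The median element had a signal of 22.7 in inactive del-cIDR and 13.9 in Col-0, in the low range where the upward shift described above was found. AT2TE56040 had 1660 and 1582 in inactive del-cIDR, against 562 and 556 in Col-0 (1.52 ± 0.05). AT2TE28180 had 159 and 144 in inactive del-cIDR, against 681 and 578 in Col-0 (-2.00 ± 0.09). Among features without a protein-coding annotation, AT4G13495 had 5048 and 4881 in inactive del-cIDR, against 2233 and 2332 in Col-0 (1.12 ± 0.05). AT5G09935 had 655 and 677 in inactive del-cIDR, against 233 and 238 in Col-0 (1.47 ± 0.08). The strand setting of the counting is not stated, so reads of an overlapping gene on the other strand cannot be set aside for such loci.

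Plastid-encoded genes rose in 83 of 132 cases, with 30 holding, and fell in 10, with 8 holding. Mitochondria-encoded genes rose in 4 of 14 cases and fell in 6, and 2 and 4 of these held. Rises were 62.9% of plastid-encoded and 28.6% of mitochondria-encoded genes, against 32.4% of all features, and falls 7.58% and 42.9%, against 7.84%. Held rises were 22.7% and 14.3%, against 10.2% of all features, and held falls 6.06% and 28.6%, against 7.75%. ATCG01160 had 6934 and 6240 in inactive del-cIDR, against 2458 and 2305 in Col-0.

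The single largest rises by the naming rule included genes outside these lists. AT1G13650 had 329 and 337 in inactive del-cIDR, against 6.99 and 11.7 in Col-0 (4.40 ± 0.22). SRO5, a member of the RCD1-like family of stress proteins, had 543 and 533 in inactive del-cIDR, against 47.1 and 45.1 in Col-0 (3.36 ± 0.09). FBS1, an F-box protein induced by stress, had 529 and 519 in inactive del-cIDR, against 67.5 and 50 in Col-0 (3.03 ± 0.10). In each the Col-0 libraries lay near the bottom of the range. DDF1, a CBF-related transcription factor, had 379 and 354 in inactive del-cIDR, against 49.3 and 43.0 in Col-0 (2.82 ± 0.11). BPS3, AT1G70820, AT3G00330 and CYP81G1 rose by 3.09 ± 0.13, 3.11 ± 0.10, 2.97 ± 0.16 and 2.76 ± 0.15. AT2G05760 met the rule through 1 library, with 51.6 and 1173 in inactive del-cIDR and 31.6 and 29.9 in Col-0. Without inactive del-cIDR replicate 2 its change was 0.63 and it was no longer called (adjusted p = 0.114).

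The largest fall was at AT3G01345, with 8.44 and 9.50 in inactive del-cIDR against 311 and 283 in Col-0 (-4.25 ± 0.25). THA1, a threonine aldolase that breaks threonine down to glycine, had 310 and 284 in inactive del-cIDR, against 2418 and 2425 in Col-0 (-3.00 ± 0.06). BCAT-2, a plastid aminotransferase of branched-chain amino acids, had 1642 and 1638 in inactive del-cIDR, against 6921 and 6674 in Col-0 (-2.05 ± 0.04). Both enzymes act on amino acids, and in both the libraries of the genotypes lay apart, as the naming rule required. BZS1, a B-box protein of light and brassinosteroid signalling, had 36.4 and 42.1 in inactive del-cIDR, against 165 and 167 in Col-0 (-1.91 ± 0.16). AT1G62480, AT1G07050, AT1G19530 and AT4G25580 fell by 2.15, 2.43, 2.17 and 2.02 on the log2 scale. AT3TE58605 met the rule through 1 Col-0 library, with 88.8 and 108 in inactive del-cIDR and 1812 and 114 in Col-0, and its call did not hold. Without Col-0 replicate 1 its change was -0.20 (adjusted p = 0.890).

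The m6A values of the inactive del-cIDR line were lower than those of Col-0 at nearly every peak. Of 2291 peaks, 2253 had a negative log2 change and 38 a positive one, with a median of -0.95. By limma 551 peaks were lower (24.1%) and none was higher. At an unadjusted p under 0.05 the counts were 896 lower and 0 higher. At 1856 peaks (81%) both inactive del-cIDR values lay below both Col-0 values, and at 5 peaks (0.218%) both lay above. The library medians were 2.51 and 4.57 in inactive del-cIDR, against 6.60 and 7.09 in Col-0, a log2 difference of -1.01. The exact two-sided permutation test of these 4 medians gave p = 0.333, again the smallest possible. The first of the inactive del-cIDR libraries was lower than the second, and the 2 differed more than the Col-0 libraries did.

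These calls rest on the deposited scale and on few libraries. After centring each library on its median no peak was called, and after cyclic loess 2 were higher (0.0873%) and 1 lower (0.0436%). Without inactive del-cIDR replicate 1 the count was 270, without inactive del-cIDR replicate 2 it was 886, and without Col-0 replicate 1 or 2 it was 275 or 271.

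**Figure D4:**
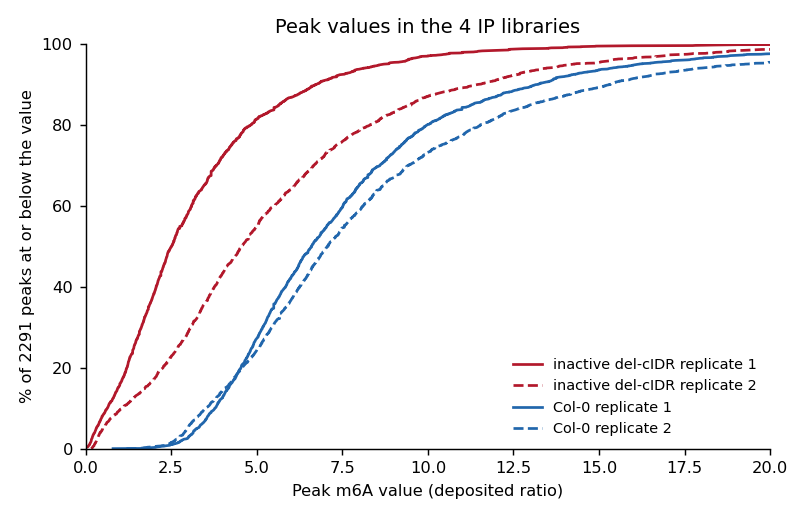
Cumulative percentage of the 2291 peaks at or below an m6A value (deposited ratio, drawn up to 20), with 1 line per IP library. The inactive del-cIDR libraries have medians of 2.51 and 4.57 and lie left of the Col-0 libraries, with medians of 6.60 and 7.09.

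The difference from Col-0 was widest, in proportion, at the weakest peaks. By level in the other 3 ALKBH5 lines, 226 of 230 peaks in the lowest of 10 classes were called lower. Their medians were 0.337 and 0.528 in inactive del-cIDR, against 3.47 and 3.05 in Col-0. In the highest class 4 of 229 were called, with medians of 8.11 and 13.9 in inactive del-cIDR and 15.71 and 18.06 in Col-0. Taken peak by peak, the median value in the lowest class was 9.73% of the Col-0 mean in the first inactive del-cIDR library and 16.0% in the second. In the highest class it was 48.0% and 80.3%. The classes come from lines that, like the one tested, have lower values than Col-0, so a peak low in all ALKBH5 lines falls in the lowest class. With classes from all 10 libraries the counts were 227 and 5. Under a value of 2 there were 875 and 393 peaks in inactive del-cIDR, against 7 and 10 in Col-0.

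**Figure D5:**
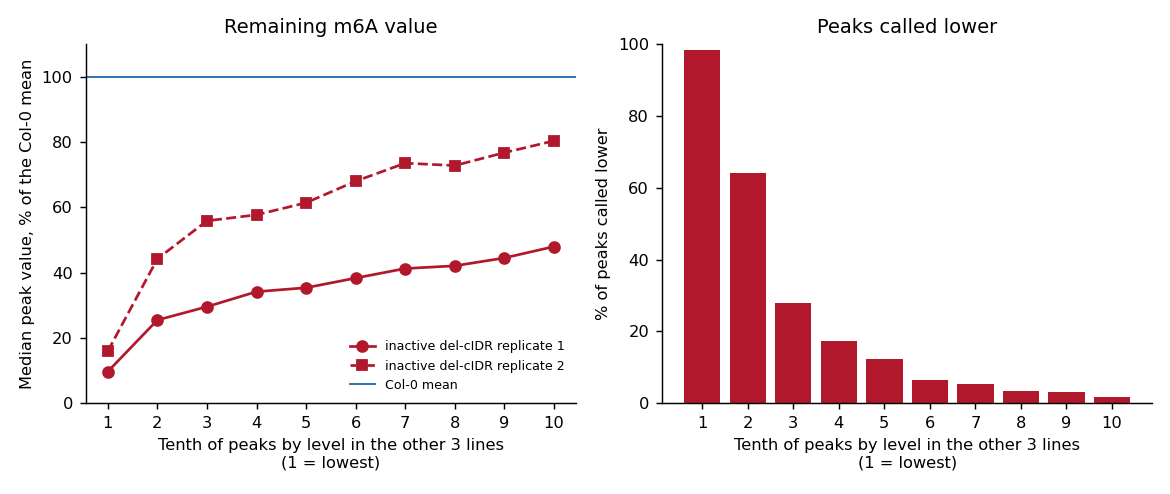
By level class of the peaks (1 is the lowest in the other 3 ALKBH5 lines), the left panel plots the median peak value of each inactive del-cIDR library as a percentage of the Col-0 mean, with Col-0 as a line at 100%, and the right panel the percentage of peaks called lower than in Col-0. The lowest class has 9.73% and 16.0% of the Col-0 mean and the highest 48.0% and 80.3%.

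Values below those of Col-0 were also found on the organelle genomes. On the mitochondrial genome 18 of 21 peaks were called lower, with medians of 0.317 and 0.453 in inactive del-cIDR against 3.64 and 3.16 in Col-0. On the plastid genome 22 of 23 were called, with medians of 0.655 and 0.704 in inactive del-cIDR against 3.19 and 2.89 in Col-0. Nuclear peaks were called in 511 of 2247 cases, with medians of 2.57 and 4.66 in inactive del-cIDR and 6.68 and 7.14 in Col-0. Organelle peaks thus had medians under 1 in both inactive del-cIDR libraries. Of 2029 peaks in exactly 1 gene 416 were called, and of 111 nuclear peaks in no gene 59 were called.

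All 17 peaks on nuclear photosynthesis genes were called lower, with a median change of -2.09 against -0.95 for all peaks. The lowest level class as a whole had a similar median change, -2.00, and 226 of its 230 peaks were called, against 24.1% of all peaks. On CAB2 the peak (TAIR10 chromosome 1, 10475247 to 10475928) had 0.284 and 0.544 in inactive del-cIDR, against 3.40 and 3.11 in Col-0 (-2.00 ± 0.26). On RBCS3B, a Rubisco small subunit gene, the peak at chromosome 5, 15378162 to 15378388, had 0.172 and 0.435 in inactive del-cIDR, against 3.15 and 2.86 in Col-0 (-2.09 ± 0.22). On both genes the expression signal was higher in inactive del-cIDR, as given for CAB2 above and by 2.13 ± 0.05 for RBCS3B. GRP7, whose expression fell, had a peak at chromosome 2, 9265648 to 9265992, with 0.238 and 0.325 in inactive del-cIDR against 2.98 and 2.74 in Col-0 (-2.05 ± 0.23). Low m6A values thus stood on genes whose expression had moved in either direction. Both peaks on COR47, a dehydrin gene, and all 3 peaks on SNC1 were called lower. The first SNC1 peak (chromosome 4, 9501398 to 9501799) was 0 and 0.378 in inactive del-cIDR, against 2.59 and 2.75 in Col-0.

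Peaks on other listed genes were mostly not called. Both reader peaks were not called: ECT7 had 3.15 and 5.77 in inactive del-cIDR and 9.90 and 11.5 in Col-0, and ECT3 had 3.72 and 3.33 in inactive del-cIDR and 3.96 and 3.59 in Col-0. On ECT3 the values of the genotypes were close, with a log2 difference of -0.09 ± 0.52. Of 6 flowering-time peaks the 1 on AGL20, a floral activator, was called, with 0.726 and 1.29 in inactive del-cIDR against 3.50 and 4.17 in Col-0 (-1.52 ± 0.38). Its call was lost without Col-0 replicate 2 (adjusted p = 0.0502). DCL2, a Dicer gene of RNA silencing, had 2.57 and 11.7 in inactive del-cIDR and 7.46 and 8.79 in Col-0, so that the libraries overlapped.

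Among stronger peaks, whose mean over the 10 libraries was not below the median peak, 15 were named for the size of their fall. The calls rest on few libraries. Without inactive del-cIDR replicate 1, 14 of the 15 were not called (adjusted p up to 0.627), the changes of the 15 ran from -1.97 to -0.82, and 6 were over 1.5 times smaller. Without Col-0 replicate 1 or 2, 12 or 14 were not called (adjusted p up to 0.187 or 0.332). The order among them also changed without inactive del-cIDR replicate 1. The first 3 given were on pseudogenes. On AT2G12500 (chromosome 2, 5090515 to 5091584) the peak had 2.26 and 4.40 in inactive del-cIDR, against 16.7 and 14.8 in Col-0 (-2.13 ± 0.58). On AT3G47875 (chromosome 3, 17663795 to 17664839) it had 0.917 and 4.37 in inactive del-cIDR, against 10.4 and 11.1 in Col-0 (-2.08 ± 0.57, and -1.20 without inactive del-cIDR replicate 1). On AT4G08100 (chromosome 4, 5080006 to 5080388) it had 2.62 and 7.93 in inactive del-cIDR, against 19.7 and 22.3 in Col-0 (-2.06 ± 0.58, and -1.35 without that library). In all 3 the inactive del-cIDR libraries lay well apart from each other and both lay below Col-0.

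Protein-coding genes in the same group included regulators of RNA and signalling. DCP2, the mRNA decapping enzyme, had a peak at chromosome 5, 4369984 to 4370185, with 1.00 and 3.78 in inactive del-cIDR against 9.16 and 8.41 in Col-0 (-1.85 ± 0.57, and -1.11 without inactive del-cIDR replicate 1). ERL2, an ERECTA-like receptor kinase of stomatal patterning, had 1.14 and 4.61 in inactive del-cIDR, against 8.25 and 11.3 in Col-0 (-1.80 ± 0.56, and -0.99 without that library). TAF15b, an RNA-binding TBP-associated factor, had 2.39 and 4.41 in inactive del-cIDR, against 11 and 14.7 in Col-0 (-1.80 ± 0.57). LSP1, a cap-binding translation initiation factor, had 2.06 and 6.04 in inactive del-cIDR, against 14.1 and 12.1 in Col-0 (-1.72 ± 0.58, and -1.05 without that library). The other members of this group were AT5G09670, AT2G26200, AT1G18030, RK2, SEC1A, RGLG2, AT1G23230 and AT3G63340, with changes from -1.98 to -1.74. Of these RGLG2 moved to -0.82 without inactive del-cIDR replicate 1. No peak passed the rule in the other direction. The 5 peaks of smallest p with a positive change, none of which passed, were on AT3G17410 (0.62), AT1G13000 (0.49), AT5G14460 (0.35), ARP8 (0.28) and between genes at chromosome 2, 5799617 to 5799866 (0.50). On AT3G17410 the values were 13.9 and 11 in inactive del-cIDR and 6.02 and 10.3 in Col-0.

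Expression and m6A were then set side by side for the 1974 genes measured in both tables. A gene with several peaks was represented by its peak of smallest p, so such genes had more chances of a called peak. Their median expression change was 0.023, against 0.31 for all features. The 391 genes with a peak called lower had a median expression change of 0.08, with 61 rises and 103 falls that held. The 1583 genes without a called peak had a median of 0.015, with 90 rises and 366 falls that held. Read the other way, a peak was called lower on 61 of 151 genes whose rise in expression held (40.4%), on 103 of 469 whose fall held (22%), and on 227 of 1354 other genes (16.8%). Their median peak values in Col-0 were 6.2, 6.67 and 7.48, so the first group also had the lowest median peak value. The part of peak level in these shares was not tested. No source used here gives the denominator of the m6A ratio, and its dependence on the input signal was not tested.

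Individual genes showed each combination. JMJD5, whose expression was among the largest falls, had a peak (chromosome 3, 7278047 to 7278303) with 2.0 and 2.38 in inactive del-cIDR, against 7.43 and 6.44 in Col-0 (-1.45, adjusted p = 0.0280). CPK28, a calcium-dependent kinase of immune signalling, rose in expression by 1.57 and had m6A values of 1.14 and 1.68 in inactive del-cIDR against 6.10 and 8.04 in Col-0. ROC4, a plastid cyclophilin, rose in expression by 1.52, while its peak was not called, with 2.28 and 4.57 in inactive del-cIDR and 5.63 and 4.90 in Col-0. PCL1, whose expression fell, had a peak with 1.47 and 2.12 in inactive del-cIDR and 4.58 and 3.95 in Col-0 that missed the threshold (adjusted p = 0.0617).

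The line was also set directly against the other inactive line, which keeps the disordered region. All comparisons given here share the inactive del-cIDR libraries. Against inactive FL, 3543 features were higher (11.6%) and 2549 lower (8.33%), with a median change of 0.06. Under all 3 scalings 2672 rises (8.73%) and 2488 falls (8.13%) held, and centring on the median gave 2726 higher (8.9%) and 3695 lower (12.1%). All 41 photosynthesis genes were higher than in inactive FL, 39 of them held, with a median change of 1.17. CAB2 had 39821 and 39826 in inactive del-cIDR, against 13727 and 13617 in inactive FL (1.54 ± 0.04). RCA had 49131 and 49974 in inactive del-cIDR, against 14729 and 15263 in inactive FL (1.72 ± 0.04). Of 28 clock genes 6 were higher, 3 of them held, and 13 lower, all held. TOC1 had 1376 and 1321 in inactive del-cIDR, against 4201 and 4282 in inactive FL (-1.65 ± 0.04). GRP7 had 16011 and 15739 in inactive del-cIDR, against 50522 and 49755 in inactive FL (-1.66 ± 0.03). TOC1 and GRP7 were thus low beside inactive FL as well as beside Col-0.

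Stress genes moved in both directions between the inactive lines. Summed rapid stress signal was 20372 and 21438 in inactive FL and 27508 and 28062 in del-cIDR, against 10339 and 9976 in Col-0. For jasmonate genes the sums were 7821 and 8142, 6949 and 7324, and 3268 and 3331. Neither rise was thus particular to this line. CBF1, CBF2 and PRR9 also rose over Col-0 in inactive FL, by 1.78, 1.90 and 1.53, while COR27 changed by -0.26. Of 19 rapid stress genes 8 were higher and 4 lower in inactive del-cIDR, of which 7 and 3 held. Of 22 jasmonate genes 9 were higher and 1 lower, of which 8 and 1 held. WRKY33 had 3183 and 3157 in inactive del-cIDR, against 3395 and 3700 in inactive FL (-0.16 ± 0.05). LOX3 had 1742 and 1701 in inactive del-cIDR, against 1228 and 1299 in inactive FL (0.44 ± 0.06). LOX2, a lipoxygenase abundant in leaves, had 2099 and 1993 in inactive del-cIDR, against 630 and 666 in inactive FL (1.65 ± 0.07). Among plastid-encoded genes 106 of 132 were higher and 2 lower than in inactive FL, of which 66 and 1 held. ATCG00970 had 14451 and 18086 in inactive del-cIDR against 2950 and 3725 in inactive FL. AT5TE31020, a transposable element, had 47.1 and 53.3 in inactive del-cIDR, against 246 and 258 in inactive FL (-2.18 ± 0.16). In m6A no peak was called between the inactive lines by limma, with 14 higher and 18 lower at an unadjusted p under 0.05, none called after centring or cyclic loess, and a median change of -0.003.

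Against the active del-cIDR line, which has the same truncation, 844 features were higher (2.76%) and 8782 lower (28.7%), with a median change of -0.27. Of these, 842 rises (2.75%) and 2465 falls (8.05%) held, and centring on the median gave 2141 higher (6.99%) and 2567 lower (8.39%), and cyclic loess 3014 higher (9.85%) and 2672 lower (8.73%). On the deposited scale 33 of 41 photosynthesis genes were higher than in del-cIDR and 2 lower, with a median change of 0.38. Their summed signal in del-cIDR was 467635 and 479012, well above the 254981 and 251900 of Col-0. The photosynthesis rise was thus not particular to this line. On the same scale, 2 of 19 rapid stress genes were higher and 11 lower, and of 17 cold genes 2 and 14. Their median changes were -0.36 and -0.58, against -0.27 for all features. Of 22 jasmonate genes 13 were higher and 0 lower, with a median change of 0.70. COR27 had 141 and 134 in inactive del-cIDR, against 942 and 926 in del-cIDR (-2.71 ± 0.07). FKF1 had 389 and 369 in inactive del-cIDR, against 1955 and 1948 in del-cIDR (-2.34 ± 0.07). TOC1 had 1376 and 1321 in inactive del-cIDR, against 4197 and 4212 in del-cIDR (-1.64 ± 0.04). TOC1 and FKF1 were thus lower in inactive del-cIDR than in del-cIDR as well as in Col-0. ARGAH2, an arginase, was higher, with 282 and 262 in inactive del-cIDR against 68.5 and 62.6 in del-cIDR (1.95 ± 0.16). AT3G57420 had 383 and 350 in inactive del-cIDR, against 2065 and 2167 in del-cIDR, and 396 and 434 in Col-0. AT1G67105 had 41.6 and 47.6 in inactive del-cIDR, against 282 and 272 in del-cIDR. In m6A 4 peaks were higher than in del-cIDR (0.175%) and none lower, and none was called after centring or cyclic loess. The median m6A change was 0.51, with 2074 peaks positive and 217 negative. The library medians were 2.51 and 4.57 in inactive del-cIDR and 2.63 and 1.67 in del-cIDR, so that they overlapped. Peaks of a library share its level, so the count of signs is no count of independent changes. At an unadjusted p under 0.05 (limma) 272 peaks were higher and 3 lower.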

How the data were processed

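Input and IP libraries of chromatin-associated RNA, made with the SMARTer stranded kit after m6A enrichment of 200 ng of RNA with 5% kept as input, were grouped by the genotype and library type in the labels. The deposited expression values are a signal per feature whose ERCC controls sum to nearly the same total in every library (109313 to 110569). The deposited m6A values are a ratio per peak with the m6A spike-in at 10.579 in every IP library, and the ratio's denominator is not given in the sources used here. HISAT2, featureCounts, MACS2, fastp, Picard, SAMtools, bedtools and TAIR10 are named, per the submitters' processing notes. Spike-in features (92 in the expression table) were set aside.

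Values were analysed as log2(value + pseudocount), with pseudocounts of 6.9386 (expression) and 0.54159 (m6A), the 5th percentile of non-zero values, so changes of low features are understated. Features had to reach the pseudocount in 2 libraries, which removed none. limma 3.58.1 in R 4.3.3 fitted 5 genotype means to the 10 libraries of each table with a trend in the prior variance, so the spread is shared by all genotypes, and tests were two-sided with Benjamini-Hochberg adjustment over the table. For m6A the prior degrees of freedom were infinite, so standard errors rest on the spread pooled over peaks. The fit was tested on simulated data with a common spread in all libraries, taken from Col-0, and no shift of a whole library. That test therefore does not bear on the choice of scale or on replicates that differ as a whole. Peaks were assigned where exactly 1 gene of a TAIR10.1 table overlapped at least 50% of the peak, and 26417 expression features matched that table. Loci without a symbol there are given by identifier. No promoter sequences were used here, so the planned motif search was not run.

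Named features were the 15 of largest change in each direction among called, non-overlapping features with a mean at or above the table's median, 5 for each direct contrast, the 5 of smallest p among transposable elements and among noncoding features, up to 6 of smallest p per list and all m6A machinery genes. Other list members, other genes with a peak, and gene families were picked after their values were seen. The members and lists were chosen with earlier results of these data known. Alternatives were other pseudocounts, filters and scalings, no variance trend, the 4 libraries alone, a replicate block and leaving out each library. Figures were drawn with matplotlib in Python 3.11.15.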

Additional observations from a re-analysis of the deposited data

Results flagged for a closer look

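For 13 of the named expression features the change against Col-0 differed between the 2 inactive lines, both by the direct test of the lines (limma, Benjamini-Hochberg adjusted p from 9.20e-41 to 2.16e-05) and in that the change of inactive FL was at most 0.25 of that of inactive del-cIDR. The changes share the Col-0 libraries, so the direct difference, inactive del-cIDR minus inactive FL, is the tested value. The features were named by their change in the same inactive del-cIDR libraries and kept for a small change in inactive FL. The direct test reuses those libraries, so its p-values are favoured by that choice and are no independent support.

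2 of them were higher in inactive del-cIDR. TT4, the chalcone synthase gene, changed by 2.82 in inactive del-cIDR and by 0.18 in inactive FL, a difference of 2.64. AT2G05760 changed by 2.80 and 0.24, a difference of 2.56, which rests on 1 inactive del-cIDR library.

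The other 11 were lower in inactive del-cIDR. JMJD5 changed by -3.03 in inactive del-cIDR and by -0.38 in inactive FL, a difference of -2.65. The threonine aldolase gene THA1 changed by -3.00 and -0.32, a difference of -2.68. For COR27 the changes were -2.93 and -0.26, and the difference was -2.67. For COL9 they were -2.48 and -0.54, and the difference was -1.94. The aminotransferase gene BCAT-2 changed by -2.05 in inactive del-cIDR and by -0.003 in inactive FL, a difference of -2.04. The B-box gene BZS1 changed by -1.91 and -0.46, a difference of -1.45. The loci without a symbol were AT1G07050 (-2.44), AT4G33980 (-2.14), AT4G25580 (-2.02), AT1G19530 (-1.79) and the transposable element AT2TE28180 (-1.91), given here as the difference between the lines.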

How the results depend on the processing

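The expression count against Col-0 stayed within 1.5 times of 12320 under every alternative run, from 8498 to 13261 when 1 library was left out. Its split did not, as given in the report. The median difference between libraries was 0.22 with features at or above the median level only, and ran from 0.378 to 0.465 when 1 library was left out. For m6A that difference ran from -1.45 to -0.58. The 551 m6A calls were 0 with strong peaks only, 0 after median-centring, 3 after cyclic loess, and 270 to 886 when 1 library was left out. Against inactive FL the expression count was 3292 without a variance trend and 4399 to 6141 when 1 library was left out. The m6A count was 1 with the pseudocount at the 20th percentile and 0 to 3 when 1 library was left out. Against del-cIDR the expression count was 4708 after median-centring, 5686 after cyclic loess and 6418 to 10405 when 1 library was left out. The 4 m6A calls were 14 with the pseudocount halved, 0 with it at the 20th percentile, 0 with strong peaks only, 0 after median-centring, 0 without a trend, 0 after cyclic loess, and 0 to 41 when 1 library was left out. The cause of these differences was not tested.

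Of 58 features named for the size or the p of their change against Col-0, 58 kept their direction and side of the threshold with the 4 libraries alone, and 43 did after median-centring and after cyclic loess. Of 191 called members of the expression lists with at most 60 genes, markers aside, 0 lost the call with the 4 libraries alone, 41 after median-centring, 22 after cyclic loess and 9 to 22 when an inactive del-cIDR or Col-0 library was left out. Of their 43 called peaks all lost it after either scaling, and 1 to 3 when such a library was left out. Features named in the direct contrasts were not recomputed one by one. The sign turned at AT1G13000 (-0.10 to 1.08 when 1 Col-0 library was left out) and at the intergenic peak on chromosome 2 (-0.35 to 1.34 when 1 inactive del-cIDR library was left out), neither of them called. With the replicate number as a block 12839 expression features and 581 peaks were called, and 9909 rises, 2392 falls and all 551 peaks were shared with the fit without it. Same-numbered libraries correlated at -0.0427 to 0.105 in expression and at -0.226 to 0.351 in m6A, so the numbers were not taken to pair samples. With 2 libraries a side and depth unknown, small differences at weak features were not detectable.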

Other observations

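Gene families named by their symbols, 72 with at least 15 measured members, were looked over after the values were seen, and the following are described without a test. Of all features 32.4% rose and 7.84% fell, and 10.2% and 7.75% did so and held. B-box zinc-finger genes, many of which act in light signalling, had the largest share of held falls among these families, 6 of 15, with 4 rises of which 3 held. All 6 falls on the deposited scale held. BBX16 had 541 and 491 in inactive del-cIDR, against 90.11 and 99.72 in Col-0 (2.36 ± 0.12). BBX8 had 215 and 215 in inactive del-cIDR, against 519 and 502 in Col-0 (-1.22 ± 0.08), and BBX14 had 4138 and 3997 in inactive del-cIDR, against 7605 and 7472 in Col-0 (-0.89 ± 0.04). Translation initiation factor genes of the EIF series fell in 7 of 20 members, all held, and none rose. EIF3A had 2308 and 2435 in inactive del-cIDR, against 3623 and 3619 in Col-0 (-0.61 ± 0.05). Beta-galactosidase genes, whose products act on cell-wall and other glycans, had the largest share of held rises among these families, with 10 of 15 higher, 7 of them held, and 4 lower, 3 of them held. BGAL3 had 1237 and 1338 in inactive del-cIDR, against 454 and 476 in Col-0 (1.45 ± 0.07). Alpha-expansin genes, which loosen the cell wall, rose in 9 of 18 members, 6 of them held, and 1 fell. EXPA6 had 443 and 475 in inactive del-cIDR, against 219 and 194 in Col-0 (1.13 ± 0.10). U-box ubiquitin ligase genes rose in 13 of 21 members, 8 of them held, and fell in 3, all held. Those 3 were PUB14 (-0.65 ± 0.08), PUB13 (-0.44 ± 0.06) and PUB8 (-0.34 ± 0.13). PUB19, a negative regulator of abscisic acid signalling, had 2073 and 2057 in inactive del-cIDR, against 332 and 360 in Col-0 (2.55 ± 0.06).

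Small nuclear and nucleolar RNA genes were higher as classes. Of 171 snoRNA genes 129 were called higher (75.4%), 62 of them under all 3 scalings (36.3%). Of 20 snRNA genes 16 were (80%), 8 of them under all 3 (40%). The shares of all features were 32.4% and 10.2%. U1.5, a spliceosomal U1 RNA gene, had 11587 and 11768 in inactive del-cIDR, against 6964 and 6628 in Col-0 (0.78 ± 0.05). The snoRNA gene AT3G07735 had 817 and 947 in inactive del-cIDR, against 353 and 352 in Col-0 (1.3025 ± 0.09). Neither rise was particular to this line. U1.5 had 11940 and 12725 in del-cIDR, 9345 and 8733 in FL, and 5910 and 6882 in inactive FL. AT3G07735 had 840 and 1069 in del-cIDR, 479 and 437 in FL, and 285 and 375 in inactive FL. These genes have near-identical copies, and how shared reads were counted is not stated.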
